A study of Mus musculus with 10 samples.

Results

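The 36 genes described here are macrophage and monocyte marker genes, chosen by name from the 56832 genes of the count table. They comprise pan-macrophage, resident, recruited-monocyte and phagocyte genes, and all 36 were found in the table. Of these, 32 had enough counts to be tested over all libraries. Lyve1, Timd4, Folr2 and Ly6c2 did not.

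RNA was sequenced from heart muscle cells sorted from 5 Sprr1a-GFP mice. The mice had an infarct at 12 weeks of age and were studied 5 days later. Each mouse gave 1 library of GFP+ cells, called border zone cardiomyocytes in the labels, and 1 of GFP− cells, called remote zone cardiomyocytes. All 5 mice carried the reporter and the tag Hetz, and all had an infarct, so no uninjured or reporter-free heart is among the groups. The gates also differed: the titles of GFP+ libraries name DAPI-negative and DAPI-positive cells, those of GFP− libraries DAPI-negative cells alone, and a difference of reporter cannot be told apart from a difference of this gate. By identifier, 17C1 and 17C2 form one series of mice (17C) and 21A4, 21A5 and 21A7 another (21A), and values are given within each. The labels call the cells cardiomyocytes, so the macrophage genes belong to another cell type than the one named.

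Cardiac macrophages are of mixed origin. Resident macrophages, seeded largely before birth, maintain themselves in the healthy heart and carry Lyve1, Timd4, Folr2 and Cd163. After an infarction, monocytes that carry Ccr2 and Ly6c enter the injured wall along gradients of chemokines such as Ccl2 and become macrophages that engulf dead cells, handle their lipid and feed scar formation. Complement C1q, Fc receptors and the Trem2 and Tyrobp pair take part in recognising dying cells and immune complexes, and the NADPH oxidase of phagocytes makes reactive oxygen.

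Libraries held 12244373 to 38879965 counts. Mitochondrially encoded genes took 35.7% to 91.21% of them in GFP+ and 9.195% to 61.95% in GFP− libraries. Levels are given as CPM, that is, counts scaled to a common library size after TMM normalization, which corrects for such differences in composition. The defining cardiomyocyte genes were abundant in every library, with a sum over 10 genes of 10840 to 42080 CPM in GFP+ and 4039 to 49310 CPM in GFP− libraries. In bulk RNA, fewer macrophages and less RNA per macrophage cannot be told apart.

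The macrophage and monocyte genes were present in all 10 libraries and lower in GFP+ than in GFP− cells of the 21A mice. Their summed level in GFP+ libraries was 209 and 121.5 CPM in the 17C mice (17C1, 17C2) and 227.5, 277.4 and 1001 CPM in the 21A mice (21A4, 21A5, 21A7). In GFP− libraries it was 139.5 and 123.1 CPM in the 17C mice and 942.8, 2231 and 2294 CPM in the 21A mice, in the same order. The GFP− libraries of the 3 21A mice thus held the highest sums but for the GFP+ library of 21A7, which lay above the GFP− library of 21A4. The GFP+ sum was 4.14-fold lower in 21A4, 8.04-fold lower in 21A5 and 2.29-fold lower in 21A7. In 17C1 the GFP+ sum was the higher one, and in 17C2 both sums were nearly equal. The 17C sums lean on Lgals3, which held 84.8 and 49.4 CPM in GFP+ and 13.1 and 9.76 CPM in GFP− libraries of 17C1 and 17C2. Of the 32 tested genes, 19 were lower in the GFP+ library of 17C1 and 21 in that of 17C2. The median differences were −0.25 and −0.76 on the log2 scale.

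**Figure D1:**
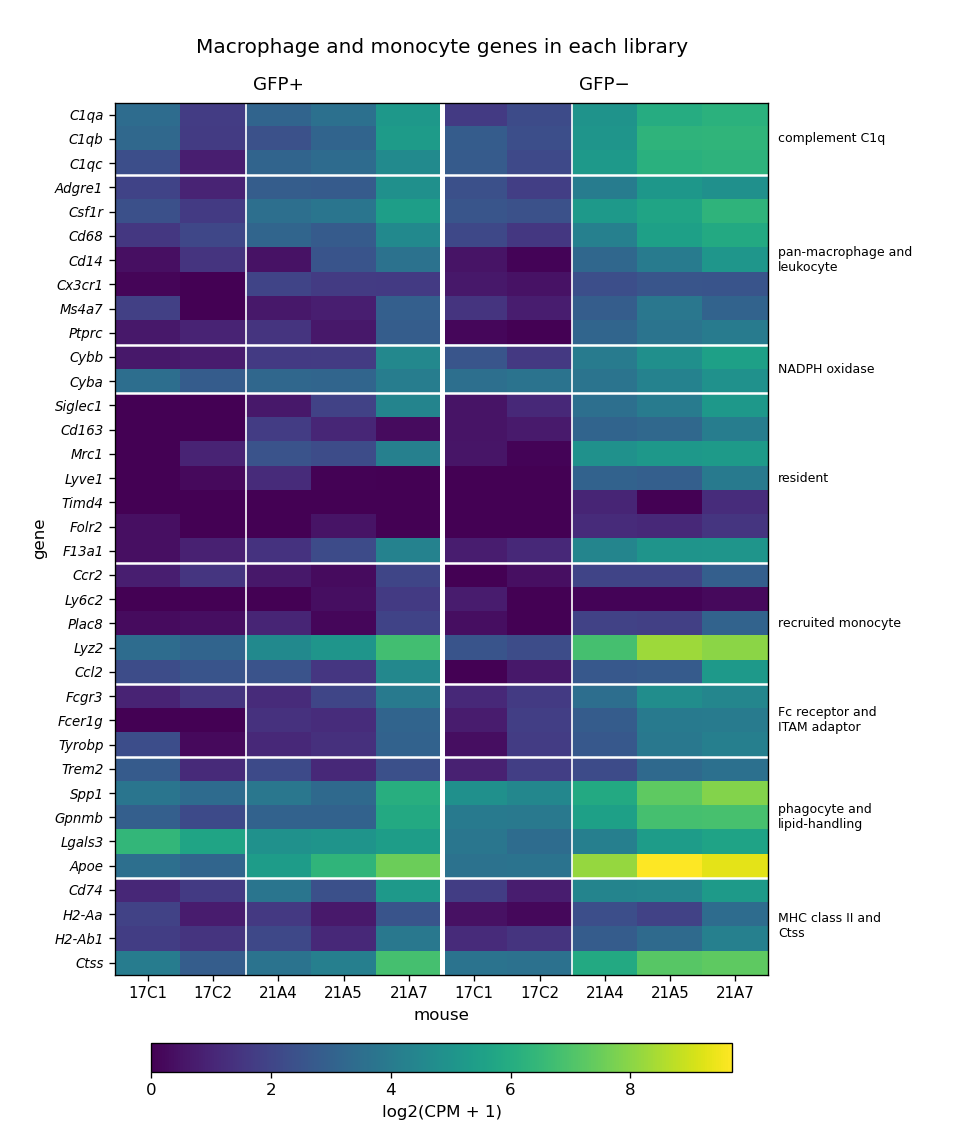
Level of each of the 36 genes in each library as log2(CPM + 1), genes in rows by role, mice in columns, GFP+ libraries left and GFP− libraries right. The GFP− libraries of mice 21A4, 21A5 and 21A7 are bright for most genes, and the libraries of 17C1 and 17C2 are dark in both groups apart from genes such as Lgals3.

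As a share of the counts outside mitochondrial genes, the 36 genes of mouse 17C1 held 0.0301% in GFP+ (0.0288 to 0.0315, a 95% Wilson interval), against 0.0252% in GFP− cells (0.0242 to 0.0262). In 21A5 they held 0.0608% of GFP+ counts (0.0593 to 0.0624) and 0.682% of GFP− counts (0.678 to 0.686). The intervals cover counting error only. In 17C2 the genes held 0.0199% of GFP+ counts (0.0189 to 0.02105) and 0.0215% of GFP− counts (0.0204 to 0.0226). This share, which needs no TMM scaling, differs between the series as the CPM sums do. In the 17C mice it leans on Lgals3 as they do. Lgals3 gave 780 of 1922 and 519 of 1276 of these counts in GFP+ libraries of 17C1 and 17C2. In their GFP− libraries it gave 219 of 2332 and 124 of 1564.

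Over all 5 mice, with each mouse as its own pair, 2 of the 32 tested genes passed the test, both lower in GFP+ cells. They were C1qc, a chain of complement C1q, and Cybb, the membrane subunit of the phagocyte NADPH oxidase. Of all 12115 genes tested, 0.173% were called lower and 0.685% higher by the same edgeR quasi-likelihood test. None of the 32 was called higher by edgeR, and 17 had an unadjusted p under 0.05, all with a negative change. The median log2 fold change (GFP+ over GFP−) was −1.27 over the 32 genes and −0.04 over all genes tested. It was below 0 for 30 of the 32, and 14 of the 32 were lower in GFP+ cells in all 5 mice. For none of the 32 did the 5 GFP+ and the 5 GFP− libraries stand without overlap, beside 0.916% of all genes with GFP+ wholly below and 1.54% with GFP+ wholly above.

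The calls over 5 mice were close to the threshold. Without the mouse as a block (a fit with no replicate block), 0 of the 32 passed in edgeR and 3 had an unadjusted p under 0.05, and leaving out 1 mouse gave 0 to 4 calls, with 0 without 17C2, 21A4 or 21A5. DESeq2 with the same pairing called 12 of them lower and limma voom 21. Calls rose over all genes too: of 12115, DESeq2 called 441 lower and limma voom 586, against 21 in edgeR. With library totals alone 3 other genes, Siglec1, Cd163 and Fcer1g, were called lower in place of C1qc and Cybb, beside 28 of all genes.

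The promoters of C1qc and Cybb, the 2 genes called over all mice, are shown because PU.1 (Spi1), the main transcription factor of myeloid cells, binds a purine-rich motif near the starts of many genes of these cells. The sequences are RefSeq's for build GRCm38.p6, which is not the build of the count table, and were read for both genes from 250 bases before the start on the minus strand (chr4:136893066-136893164 and chrX:9469325-9469574). The C1qc window was shortened to 99 bases, since the rest overlaps an annotated exon, and that of Cybb has 250. Capitals mark GAGGAA or its reverse complement TTCCTC.
C1qc: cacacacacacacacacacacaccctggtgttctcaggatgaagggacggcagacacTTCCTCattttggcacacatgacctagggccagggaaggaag
Cybb: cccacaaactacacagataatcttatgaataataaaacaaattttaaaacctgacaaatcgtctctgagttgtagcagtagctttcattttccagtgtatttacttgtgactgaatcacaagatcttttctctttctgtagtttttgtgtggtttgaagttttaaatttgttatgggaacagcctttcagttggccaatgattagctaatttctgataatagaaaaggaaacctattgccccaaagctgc
The C1qc window holds 1 match, on the strand opposite to the gene, and that of Cybb 0. Among promoter entries of the same RefSeq table, 23.3% of 32851 hold the motif on either strand, and 16 of the 36 entries that belong to the genes described here do (44.4%). These entries cover 26 genes, of which 13 have a match in at least 1 entry. A match is a run of letters and not a measured binding site.

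The complement C1q genes encode the 3 chains of the recognition molecule of the classical complement pathway and lie side by side on chromosome 4. C1qc had 4.02, 0.762, 7.77, 9.55 and 23.8 CPM in GFP+ and 5.86, 3.39, 36.7, 70.5 and 75.2 CPM in GFP− libraries of 17C1, 17C2, 21A4, 21A5 and 21A7. Every mouse had the lower value in its GFP+ library, and the groups overlapped because the 17C libraries were low in both. C1qc fell by 1.91 ± 0.34 on the log2 scale (SE, edgeR quasi-likelihood adjusted p = 0.0480), which is 3.76-fold lower in GFP+ cells. The call for C1qc was lost with DESeq2's size factors (adjusted p = 0.0525), with mitochondrial genes removed (0.0507), with library totals alone (0.139), with scaling to cardiomyocyte genes (0.548) and with no replicate block (0.600), and when any mouse but 17C1 was left out (0.0820 to 0.285).

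C1qa had 9.90, 2.29, 7.69, 10.9 and 35.1 CPM in GFP+ libraries and 2.09, 3.70, 30.9, 63.9 and 71.4 CPM in GFP− libraries of 17C1, 17C2, 21A4, 21A5 and 21A7. C1qb had 8.81, 2.19, 4.28, 7.81 and 39.3 CPM in GFP+ and 6.16, 4.02, 32.1, 77.3 and 81.4 CPM in GFP− libraries. Both genes were higher in the GFP+ library of 17C1 and lower in that of the 4 other mice. Neither passed over all mice, with log2 fold changes of −0.97 ± 0.63 for C1qa and −1.56 ± 0.56 for C1qb (adjusted p = 0.519 and 0.241).

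Cybb and Cyba encode the 2 membrane subunits of the oxidase, which together form its electron-carrying core. Cybb had 0.544, 0.667, 2.14, 2.20 and 22.1 CPM in GFP+ libraries and 4.85, 2.05, 15.2, 27.6 and 45.0 CPM in GFP− libraries of 17C1, 17C2, 21A4, 21A5 and 21A7. It was lower in the GFP+ library of every mouse, and the GFP+ value of 21A7 lay between the GFP− values of 21A4 and 21A5. Cybb fell by 2.45 ± 0.43 (log2, SE, edgeR quasi-likelihood adjusted p = 0.0461), or 5.47-fold lower in GFP+ cells. Among these genes it also had the same direction and nearly the same size in both series, −2.43 ± 0.46 in the 21A mice and −2.35 ± 1.26 in the 17C mice, though in the 17C mice it did not pass (adjusted p = 0.254). The GFP+ 17C libraries held only 5 and 7 counts of Cybb, against 81 and 26 in the GFP− ones. Its call held with DESeq2's size factors and with mitochondrial genes removed (edgeR adjusted p = 0.0485 and 0.04575). The call was lost with library totals alone (0.0528), with scaling to cardiomyocyte genes (0.353) and with no replicate block (0.689). Leaving out 17C1, 17C2, 21A4 or 21A5 lost it too.

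Cyba, which other cell types also express, had 10.2, 6.09, 8.56, 7.99 and 16.3 CPM in GFP+ and 10.7, 12.0, 12.2, 18.8 and 29.1 CPM in GFP− libraries of the same mice. It was lower in the GFP+ library of all 5 mice, slightly so in 17C1 and by a wider margin in the others. Its log2 fold change was −0.73 ± 0.24 and did not pass (edgeR adjusted p = 0.211).

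Csf1r encodes the receptor for the growth factor on which macrophages depend, and Cd68 a lysosomal membrane glycoprotein of phagocytes. Csf1r had 4.13, 2.09, 10.7, 12.6 and 42.0 CPM in GFP+ and 4.85, 4.25, 35.6, 50.04 and 78.1 CPM in GFP− libraries of 17C1, 17C2, 21A4, 21A5 and 21A7. Cd68 had 1.96, 3.14, 7.93, 5.88 and 23.6 CPM in GFP+ and 3.29, 1.97, 17.5, 44.3 and 58.2 CPM in GFP− libraries. Csf1r was lower in the GFP+ library of 5 mice and Cd68 in that of 4, and neither passed over all mice (log2 fold changes −1.20 ± 0.29 and −1.15 ± 0.45, edgeR adjusted p = 0.114 and 0.277).

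The other pan-macrophage and leukocyte genes were Adgre1 (F4/80), Cd14 (a co-receptor for bacterial lipopolysaccharide), Cx3cr1 (the fractalkine receptor), Ms4a7 and Ptprc (CD45, the pan-leukocyte phosphatase). Their log2 fold changes over all mice lay between −2.03 and −1.07, and none passed. CD45 was scarce in the 17C mice, with 5 and 10 counts in GFP+ and 2 and 0 counts in GFP− libraries of 17C1 and 17C2.

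Among the resident genes, the scavenger and lectin receptors were low or undetected in GFP+ cells of the 17C mice. Siglec1, a sialic acid-binding receptor, had 0 CPM in both GFP+ 17C libraries and 0.555, 2.80 and 19.8 CPM in those of 21A4, 21A5 and 21A7. Its GFP− values were 0.419, 1.18, 10.6, 15.4 and 35.3 CPM in 17C1, 17C2, 21A4, 21A5 and 21A7. Every mouse had less Siglec1 in its GFP+ library, but the log2 fold change of −2.69 ± 0.63 did not pass (edgeR adjusted p = 0.104).

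Cd163, the receptor for haemoglobin bound to haptoglobin, had 0, 0, 2.30, 1.06 and 0.213 CPM in GFP+ and 0.419, 0.630, 7.71, 8.72 and 16.4 CPM in GFP− libraries of 17C1, 17C2, 21A4, 21A5 and 21A7. In 21A7, the mouse with the highest macrophage sums, the GFP+ library held 2 counts of Cd163 and the GFP− library 905. Cd163 had a log2 fold change of −3.58 ± 0.78 over all mice, which did not pass in edgeR (adjusted p = 0.0847).

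Mrc1, the mannose receptor CD206, had 0, 0.952, 4.60, 3.81 and 17.7 CPM in GFP+ and 0.479, 0.0787, 28.9, 35.5 and 37.7 CPM in GFP− libraries. F13a1, the A chain of clotting factor XIII, had 0.326, 0.857, 1.67, 3.63 and 18.9 CPM in GFP+ and 0.718, 1.18, 20.1, 31.2 and 32.2 CPM in GFP− libraries. Mrc1 was lower in the GFP+ library of 4 mice and F13a1 in that of 5, and in both the GFP− libraries of the 21A mice were the high ones. Their log2 fold changes over all mice, −1.78 ± 0.76 and −1.97 ± 0.54, did not pass (edgeR adjusted p = 0.313 and 0.149).

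The 3 resident genes that were not tested over all mice were detected mainly in GFP− libraries of the 21A series. Lyve1, a hyaluronan receptor that lymphatic endothelium also carries, had 0, 2, 16, 1 and 0 counts in GFP+ and 0, 0, 378, 299 and 821 counts in GFP− libraries of 17C1, 17C2, 21A4, 21A5 and 21A7. Timd4, a receptor for phosphatidylserine on dying cells, had 0 counts in all GFP+ libraries and 54 and 73 counts in the GFP− libraries of 21A4 and 21A7 alone. Folr2, a folate receptor, had 3, 0, 0, 9 and 0 counts in GFP+ and 0, 0, 68, 53 and 99 counts in GFP− libraries.

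Among the recruited-monocyte genes, Lyz2, a lysozyme of myeloid cells, had 9.90, 7.62, 23.2, 32.6 and 106.6 CPM in GFP+ and 4.79, 3.78, 114.3, 309.0 and 257.6 CPM in GFP− libraries of 17C1, 17C2, 21A4, 21A5 and 21A7. It was higher in the GFP+ library of both 17C mice and lower in that of all 3 21A mice. Lyz2 did not pass over all mice (−1.02 ± 0.70 on the log2 scale, edgeR adjusted p = 0.541). Its near-identical copy Lyz1 was not tested, and how reads shared between the copies were counted is not given in the sources used here.

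Ccl2, the chemokine that draws Ccr2-bearing monocytes and is made by other cell types too, had 3.81, 4.76, 4.52, 1.93 and 21.9 CPM in GFP+ and 0, 0.551, 5.44, 5.84 and 36.6 CPM in GFP− libraries. Its receptor Ccr2 had 0.761, 1.81, 0.555, 0.2296 and 3.09 CPM in GFP+ and 0, 0.315, 2.996, 2.92 and 6.62 CPM in GFP− libraries. Plac8, a marker of inflammatory monocytes, had 0.217, 0.286, 1.03, 0.138 and 2.88 CPM in GFP+ and 0.299, 0, 2.77, 2.57 and 7.52 CPM in GFP− libraries. Ccl2 and Ccr2 were higher in the GFP+ library of both 17C mice and lower in that of all 3 21A mice.

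Over all mice the log2 fold changes were 0.62 ± 0.99 for Ccl2, −0.51 ± 1.32 for Ccr2 and −1.27 ± 0.97 for Plac8, and none passed in edgeR (adjusted p = 0.823, 0.898 and 0.589). The sign for Ccl2 turned with the scaling: it was −0.61 with library totals alone. Ly6c2, the monocyte surface antigen, was almost absent, with 0, 0, 0, 6 and 20 counts in GFP+ and 11, 0, 4, 3 and 10 counts in GFP− libraries. Ly6c2 shares sequence with Ly6c1, an endothelial gene, whose log2 fold change was −0.68 (edgeR adjusted p = 0.574).

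Fcgr3 encodes an activating receptor for IgG, and Fcer1g and Tyrobp (DAP12) the adaptors that signal for Fc receptors and for Trem2. Fcgr3 had 0.979, 1.71, 1.27, 3.12 and 14.4 CPM in GFP+ and 1.20, 2.13, 10.4, 26.1 and 21.1 CPM in GFP− libraries of 17C1, 17C2, 21A4, 21A5 and 21A7. Tyrobp had 3.91, 0.190, 1.19, 1.52 and 7.26 CPM in GFP+ and 0.299, 2.28, 5.30, 13.7 and 17.2 CPM in GFP− libraries. Fcgr3 was lower in the GFP+ library of every mouse, while Tyrobp went opposite ways in 17C1 and 17C2.

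Neither Fcgr3 nor Tyrobp passed over all mice (log2 fold changes −1.503 ± 0.54 and −1.57 ± 0.95, edgeR adjusted p = 0.245 and 0.483), nor did Fcer1g (−2.70 ± 0.70, adjusted p = 0.132). Fcer1g had 0 counts in both GFP+ libraries of the 17C mice, against 11 and 32 counts in their GFP− libraries. Fcgr3 is close in sequence to Fcgr2b and Fcgr4, so its counts are uncertain to that extent.

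Of the phagocyte and lipid-handling genes, 4 ran below 0 over all mice and Lgals3 above it. Spp1, osteopontin, had 12.6, 9.43, 13.3, 9.05 and 66.7 CPM in GFP+ and 28.4, 21.2, 58.1, 154.0 and 239.2 CPM in GFP− libraries of 17C1, 17C2, 21A4, 21A5 and 21A7. Gpnmb, a lysosomal glycoprotein of lipid-laden phagocytes, had 6.63, 3.52, 7.30, 7.25 and 59.0 CPM in GFP+ and 15.0, 14.1, 44.8, 112.7 and 117.9 CPM in GFP− libraries. Both were lower in the GFP+ library of all 5 mice, including the 17C mice, and in both the GFP+ library of 21A7 stood far above the other 4 GFP+ libraries.

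Over all mice Spp1 and Gpnmb missed the threshold narrowly, with log2 fold changes of −2.04 ± 0.44 and −2.13 ± 0.44 (edgeR adjusted p = 0.0792 and 0.0762). Apoe, the apolipoprotein of lipid export, had 10.7, 7.90, 39.6, 81.1 and 181.8 CPM in GFP+ and 11.6, 12.0, 284.1, 830.4 and 628.2 CPM in GFP− libraries. It was lower in the GFP+ library of every mouse, slightly so in the 17C mice, and its log2 fold change of −1.77 ± 0.52 did not pass (adjusted p = 0.170).

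Trem2, the lipid receptor that signals through Tyrobp, had 5.87, 1.24, 3.49, 1.19 and 4.16 CPM in GFP+ and 0.837, 2.52, 3.64, 8.89 and 10.8 CPM in GFP− libraries. It was higher in the GFP+ library of 17C1 alone, and its log2 fold change of −0.64 ± 0.77 did not pass (edgeR adjusted p = 0.756). Lgals3, galectin-3, a carbohydrate-binding protein that other cell types also make, had 84.8, 49.4, 29.3, 31.6 and 40.9 CPM in GFP+ and 13.1, 9.76, 17.4, 40.3 and 48.0 CPM in GFP− libraries. The GFP+ library was the higher one in 3 mice, by most in the 17C mice, and the lower one in 21A5 and 21A7. The log2 fold change of Lgals3 over all mice was 1.01 ± 0.50 (edgeR adjusted p = 0.389), and with library totals alone it was −0.08.

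Cd74 encodes the invariant chain that escorts MHC class II molecules, and Ctss the protease cathepsin S that cleaves it. Cd74 had 1.09, 2.09, 12.5, 4.22 and 36.4 CPM in GFP+ and 2.39, 0.709, 19.5, 21.1 and 37.7 CPM in GFP− libraries of 17C1, 17C2, 21A4, 21A5 and 21A7. Ctss had 16.0, 6.28, 11.8, 17.03 and 114.7 CPM in GFP+ and 11.9, 11.3, 58.0, 145.3 and 154.7 CPM in GFP− libraries. Cd74 was nearly equal in both libraries of 21A7, whereas Ctss was lower in the GFP+ library of all 3 21A mice. H2-Aa and H2-Ab1, the chains of the class II molecule I-A, had log2 fold changes of −0.15 ± 0.85 and −0.68 ± 0.54, and none of the 4 genes passed over all mice in edgeR (adjusted p = 0.296 to 0.956).

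**Figure D2:**
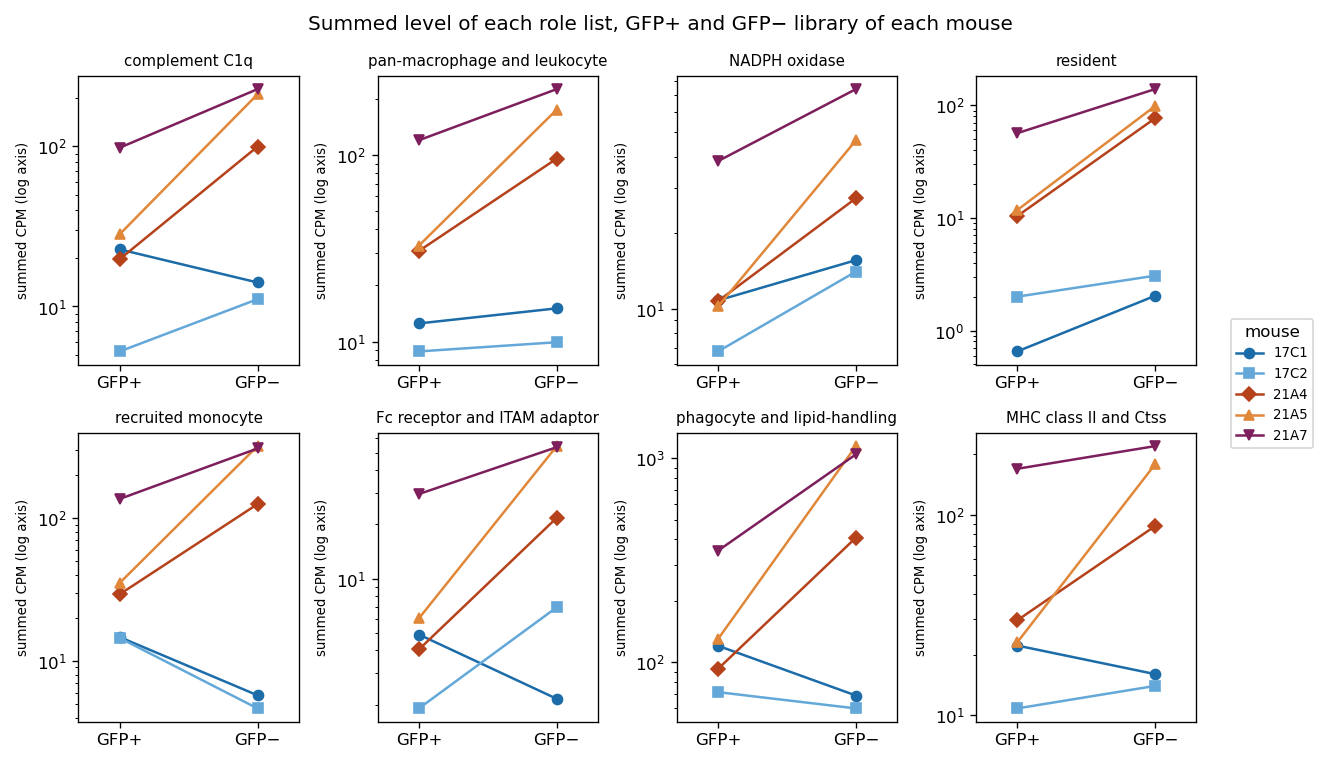
Summed CPM (log axis) of the genes of each role in the GFP+ library (left) and the GFP− library (right) of each mouse, 1 line per mouse. All lines of 21A4, 21A5 and 21A7 are higher at GFP− in every panel. Both lines of 17C1 and 17C2 are higher at GFP+ in the recruited-monocyte panel, with sums of 14.7 and 14.5 CPM in GFP+ against 5.74 and 4.65 CPM in GFP−. They are also higher at GFP+ in the phagocyte and lipid-handling panel, with 120.6 and 71.5 CPM against 68.85 and 59.5 CPM. Of these GFP+ sums, Lgals3 held 84.8 and 49.4 CPM.

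Within the 21A mice, the macrophage genes were lower in GFP+ cells across nearly all roles. Of 34 genes tested there, 21 fell, by 1.52 (Csf1r) to 4.86 (Lyve1) on the log2 scale, and none rose (edgeR quasi-likelihood test, adjusted p under 0.05). Some of the 34, such as Lyve1, had enough counts to be tested only in their GFP− libraries, which favours a fall. Among all 13221 genes tested in these mice 4.05% were called lower and 2.67% higher. The median log2 fold change was −2.17 over the 34 genes and −0.06 over all genes tested, and 32 of the 34 had an unadjusted p under 0.05. Of the 32 genes tested over all mice, 31 were lower in GFP+ cells in each of the 3 mice.

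All 3 C1q genes fell in the 21A mice (C1qa by 1.84, C1qb by 2.40 and C1qc by 2.24 on the log2 scale). Of the 6 resident genes tested there, 5 fell: Siglec1, Cd163, Mrc1, Lyve1 and F13a1. Lyve1 showed the largest of these changes, −4.86 ± 0.94 (edgeR adjusted p = 0.0189), or 29.0-fold lower in GFP+ cells, and Cd163 fell by 3.20 ± 0.67 (adjusted p = 0.0242), 9.17-fold. Folr2, at −3.77 ± 1.46, did not pass (adjusted p = 0.153). Lyve1 had 16, 1 and 0 counts in GFP+ and 378, 299 and 821 in GFP− libraries of 21A4, 21A5 and 21A7. Folr2 had 0, 9 and 0 against 68, 53 and 99. Both reached the test through their high GFP− counts, so the direction of their change is not independent of the count filter.

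All 3 Fc receptor and adaptor genes fell in the 21A mice by 2.05 to 2.15, and Spp1, Gpnmb and Apoe by 2.64, 2.50 and 2.65 (log2). Of the recruited-monocyte genes Lyz2 fell by 2.25 ± 0.37 (edgeR adjusted p = 0.0122), while Ccr2, Plac8 and Ccl2 did not pass at −2.26, −2.10 and −0.84. Of the antigen-presentation genes Ctss fell by 1.93 ± 0.46 (adjusted p = 0.0388), and Cd74, H2-Aa and H2-Ab1 did not pass at −0.95, −1.35 and −1.33. Lgals3 was the only 1 of the 34 above 0, at 0.07 ± 0.26 (adjusted p = 0.908). The count of 21 rested on the pairing and on single mice: it was 0 in the fit with no replicate block, where 16 genes had an unadjusted p under 0.05. When 21A4 was left out the count was 1, and when 21A5 or 21A7 was left out it was 8 or 27. Calls over all genes were not counted in these alternatives.

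Within the 17C mice the picture was another. Of 22 genes tested there, 2 rose and 2 fell in GFP+ cells. The shares called among all 11107 genes tested in these mice were 6.08% higher and 7.52% lower. The median log2 fold change was −0.24 over the 22 genes and −0.01 over all genes. Lgals3 rose by 2.53 ± 0.29 on the log2 scale (edgeR adjusted p = 2.25e-06), 5.77-fold, in GFP+ cells. Ccl2 rose by 4.56 ± 1.45 (adjusted p = 0.0373), on 35 and 50 counts in GFP+ and 0 and 7 counts in GFP− libraries. Spp1 fell by 1.16 ± 0.36 and Gpnmb by 1.57 ± 0.47 (adjusted p = 0.0349 and 0.0294). With 2 pairs, these p-values rest on spread estimates shared across genes, and the 2 falls were not called with DESeq2, with library totals alone or with scaling to cardiomyocyte genes, the last of which called Lyz2 higher as well.

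**Figure D3:**
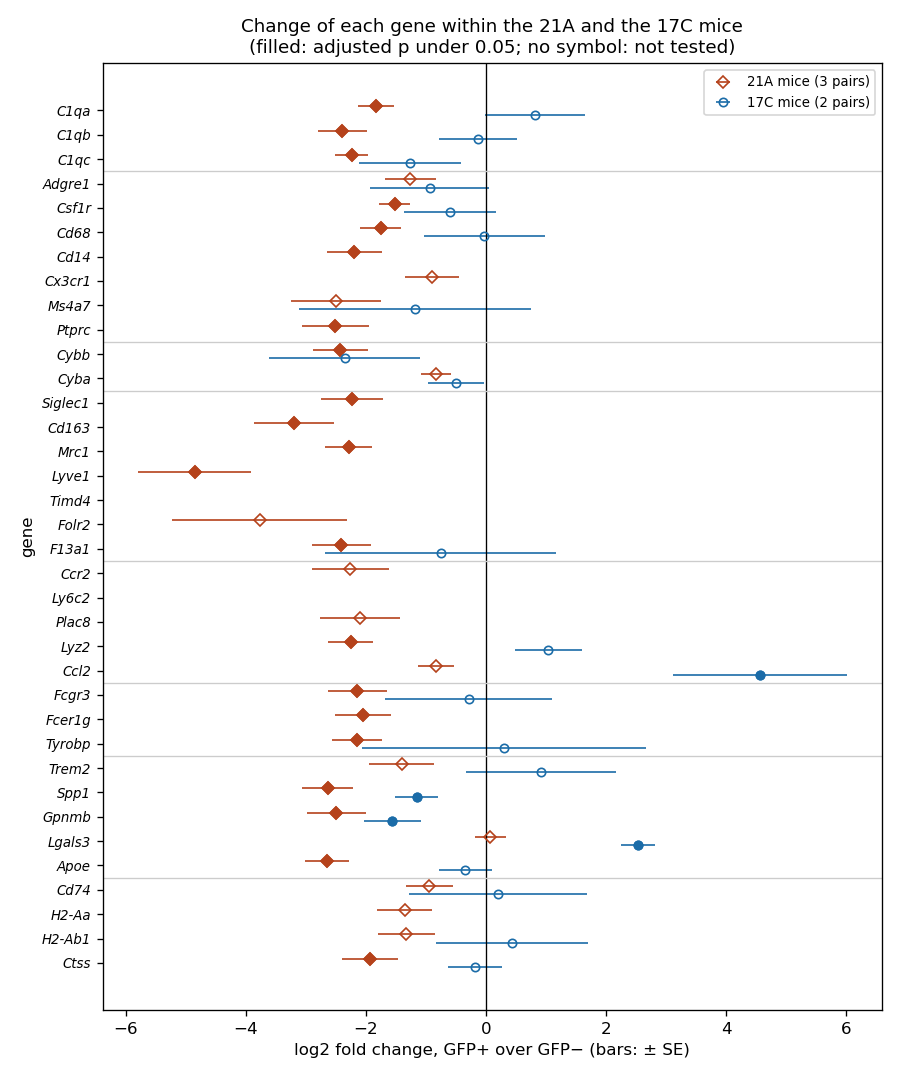
Log2 fold change, GFP+ over GFP−, of each gene in the 21A mice (red diamonds, 3 pairs) and the 17C mice (blue circles, 2 pairs), with bars of ± 1 SE, filled where the adjusted p is under 0.05 and absent where the gene was not tested. Red symbols lie left of 0 for every gene but Lgals3, and the blue ones scatter on both sides, with Lgals3 at 2.53 and Ccl2 at 4.56.

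The difference between the series was itself tested, as the GFP by series interaction (change in the 21A mice minus change in the 17C mice). It passed for 7 of the 32 genes, all with the lower change in the 21A mice, beside 4.04% of all 12115 genes called lower in this way. These were Lyz2 (−3.30 ± 0.55), Lgals3 (−2.47 ± 0.41), Apoe (−2.31 ± 0.50), Ccl2 (−5.10 ± 0.94), H2-Aa (−3.96 ± 1.03), Ptprc (−5.94 ± 1.46) and Ccr2 (−5.71 ± 1.495), with edgeR adjusted p between 0.0211 and 0.0479. For C1qc and Cybb, the interaction was −1.10 ± 0.56 and −0.08 ± 1.02 and did not pass. Ptprc, Ccr2, H2-Aa and Ccl2 had at most 7 counts in any GFP− library of the 17C mice, so the size of their fitted interaction depends on the prior count. The number of genes passing was 0 without 21A5 and 3 without 21A4. It was also 0 without 17C1, but that fit leaves 1 pair in the 17C series, which is assumed to vary like the 21A mice.

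The balance of resident, recruited and phagocyte markers within a library was described by the difference of their mean log2 CPM. Only genes tested over all mice enter: Siglec1, Cd163, Mrc1 and F13a1 as resident, and Ccr2, Plac8, Lyz2 and Ccl2 as recruited. Lyve1, Timd4, Folr2 and Ly6c2 are left out, and all 5 phagocyte genes are in. Gene length enters every library alike, so differences between libraries are read and not the level itself. The recruited-minus-resident value was 3.86, 2.99, 0.65, −0.85 and 0.87 in GFP+ and −0.80, −0.30, −0.78, −0.84 and −0.14 in GFP− libraries of 17C1, 17C2, 21A4, 21A5 and 21A7. It was higher in the GFP+ library of 4 mice and nearly equal in 21A5, with a mean difference, GFP+ minus GFP−, of 2.08 ± 1.87 (SD, n = 5 mice). The spread between mice was nearly as large as the mean, and without Ccl2 the mean difference was 1.61. The largest differences, in the 17C mice, rest on very few counts: Siglec1 and Cd163 were at 0 in both GFP+ libraries, Mrc1 at 0 in that of 17C1 and Ccl2 at 0 in the GFP− library of 17C1, so these values depend on the prior count of 2. In the 21A mice alone the mean difference was 0.81.

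The phagocyte-minus-resident value was 6.80, 4.65, 2.82, 2.16 and 2.64 in GFP+ and 3.97, 3.92, 1.21, 2.16 and 1.76 in GFP− libraries of the same mice. The mean difference was 1.21 ± 1.07 (SD, n = 5 mice), and 0.68 without Lgals3. In 21A5 both balances were nearly equal between its libraries, although that mouse had the largest median difference of the 32 genes, −2.99 on the log2 scale. These values are a description with no test.

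**Figure D4:**
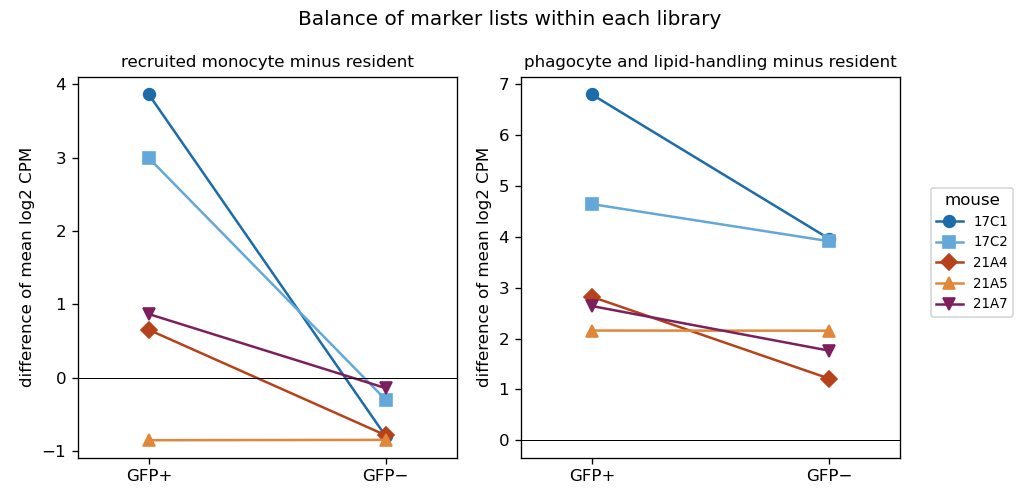
Difference of mean log2 CPM between the tested genes of lists in the GFP+ and GFP− library of each mouse, 1 line per mouse. The left panel is recruited monocyte minus resident, the right panel phagocyte and lipid-handling minus resident. The values of 17C1 and 17C2 are well above 0 at GFP+ and below 0 at GFP− in the left panel, and the line of 21A5 is flat in both.

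Shares of the counts of all 36 genes were also taken, here with every gene of a role, tested or not. Resident genes of mouse 17C1 held 0.312% in GFP+ cells (6 of 1922 counts, Wilson bounds of 0.143 and 0.679). In its GFP− cells they held 1.46% (34 of 2332, 1.05 to 2.03). In 21A4 they held 4.57% of GFP+ counts (3.86 to 5.39) and 8.15% of GFP− counts (7.91 to 8.40), and in 21A5 4.24% (3.76 to 4.78) and 4.42% (4.29 to 4.55). The share was the lower one in the GFP+ library of each mouse, and the intervals overlapped in 17C2, 21A5 and 21A7. The recruited-monocyte share was 7.02%, 11.9%, 12.9%, 12.7% and 13.6% in GFP+ and 4.12%, 3.77%, 13.3%, 14.4% and 13.5% in GFP− libraries of 17C1, 17C2, 21A4, 21A5 and 21A7. It thus differed between groups mainly in the 17C mice, where both GFP− libraries held the smallest shares. Most of the recruited-monocyte counts in every library were of Lyz2. In 17C1 and 17C2 these were 91 of 135 and 80 of 152 in GFP+ and 80 of 96 and 48 of 59 in GFP− libraries.

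Other genes of the same cells, taken from lists of macrophage genes, chemokines and macrophage functions, were looked at in the same tests. Of 30 further macrophage genes, 27 were tested over all mice and all 27 lay below 0, with a median log2 fold change of −1.54 beside −0.04 for all genes. Fcgr2b, the inhibitory Fc receptor, had a log2 fold change of −2.12 ± 0.40 and did not pass (edgeR adjusted p = 0.0698). In the 21A mice 13 of the 30 fell and none rose, and in the 17C mice none of 15 tested passed (1 at an unadjusted p under 0.05).

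Of 17 factors that recruit or sustain macrophages, 11 were tested over all mice and none passed in edgeR (1 at an unadjusted p under 0.05). The genes with the smallest p were Mif, macrophage migration inhibitory factor, at 0.72 ± 0.26 and the chemokine Cxcl12 at −0.72 ± 0.34 (adjusted p = 0.240 and 0.359). In the 21A mice 4 of 13 tested fell. Csf1, the ligand of Csf1r, had 14.2, 17.7, 25.4, 22.4 and 30.9 CPM in GFP+ and 27.2, 19.1, 22.8, 30.8 and 42.8 CPM in GFP− libraries, chosen for mention after its values were seen, and did not pass at −0.36 ± 0.22 (adjusted p = 0.494).

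Of 15 genes of inflammatory or repair phenotypes, 10 were tested over all mice. Igf1, a growth factor that cardiac macrophages and fibroblasts make, fell by 1.88 ± 0.28 (log2, edgeR adjusted p = 0.0345). It had 2.17, 0.762, 5.39, 6.06 and 7.04 CPM in GFP+ and 5.08, 2.05, 20.4, 35.3 and 29.3 CPM in GFP− libraries, lower in the GFP+ library of all 5 mice. Arg1, arginase of repair-type macrophages, was next by p and did not pass (−1.04 ± 0.40, adjusted p = 0.270). In the 21A mice 6 of 14 tested fell, and in the 17C mice the matrix glycoprotein Thbs1 rose by 1.71 and Vegfa fell by 0.92.

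Of 16 genes of lipid uptake, lysosomes and efflux, all were tested and none passed over all mice in edgeR (5 at an unadjusted p under 0.05). The tetraspanin Cd63, at 1.08 ± 0.35, and the cholesterol exporter Abcg1, at −1.19 ± 0.40, had the smallest p (adjusted p = 0.200 and 0.209). In the 17C mice Axl, a receptor for dying cells, rose by 3.16, Anxa1 by 2.71 and Cd63 by 1.995 in GFP+ cells, and Lpl and Cd36 fell by 2.10 and 0.88. In the 21A mice 3 of the 16 fell and none rose. Many genes of this list are expressed by cardiomyocytes, fibroblasts or endothelium as well.

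Fibroblast and endothelial markers moved with the macrophage genes in the 21A mice. The sum of 10 fibroblast genes was 300.5, 341.8, 2115, 1805 and 5182 CPM in GFP+ and 137.7, 294.3, 6715, 10940 and 12230 CPM in GFP− libraries of 17C1, 17C2, 21A4, 21A5 and 21A7. In the 21A mice 9 of the 10 fibroblast genes and 6 of 10 endothelial genes fell in GFP+ cells, and in the 17C mice 4 of 8 tested fibroblast genes rose. The endothelial sum was 52.6 to 373.4 CPM in GFP+ and 91.6 to 715.1 CPM in GFP− libraries. Mural markers did not move as one: of 10 tested in the 21A mice, Pdgfrb fell by 1.71 and Cspg4 rose by 1.15 (log2, edgeR adjusted p = 0.0170 and 0.0133).

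The cardiomyocyte sum went the other way in the 21A mice, with 42080, 40150 and 10840 CPM in GFP+ and 32480, 19730 and 4039 CPM in GFP− libraries of 21A4, 21A5 and 21A7, where all 10 genes lay above 0 and none passed (5 at an unadjusted p under 0.05). In the 17C mice 7 of the 10 cardiomyocyte genes fell, with sums of 19950 and 25870 CPM in GFP+ and 41210 and 49310 CPM in GFP− libraries. The mitochondrial share was 73.05%, 35.7% and 91.21% in GFP+ and 35.68%, 26.5% and 9.195% in GFP− libraries of 21A4, 21A5 and 21A7, and 49.3% and 47.69% in GFP+ and 61.95% and 58.14% in GFP− libraries of 17C1 and 17C2. The part of these markers, and of the mitochondrial share, in the results for the macrophage genes was not tested.

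**Figure D5:**
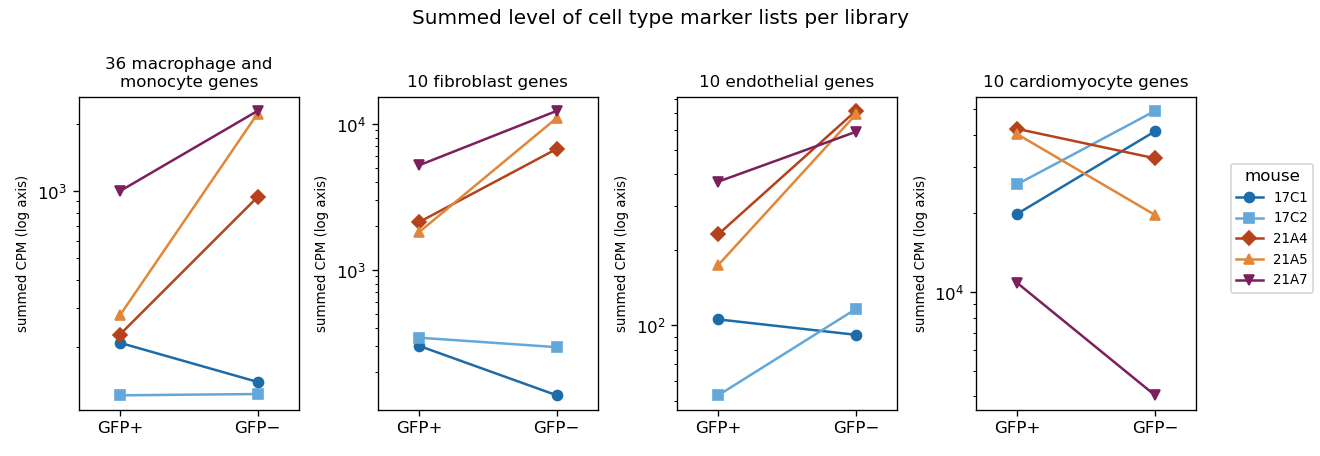
Summed CPM (log axis) of the 36 macrophage and monocyte genes and of 10 fibroblast, 10 endothelial and 10 cardiomyocyte genes in the GFP+ (left) and GFP− (right) library of each mouse. In 21A4, 21A5 and 21A7 the first 3 panels are lower at GFP+ and the cardiomyocyte panel higher, whereas in 17C1 and 17C2 the cardiomyocyte sums are lower at GFP+.

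Markers of other blood cells were found at varying levels. The 10 neutrophil genes summed to 0 to 15.4 CPM in GFP+ and 0.12 to 19.2 CPM in GFP− libraries, with Ly6g at 0 counts throughout. T and NK cell genes summed to 0 to 4.27 CPM in GFP+ and 0 to 1.5 CPM in GFP− libraries, with Cd3e and Cd3g at 0. B cell genes summed to 0 to 4.27 CPM in GFP+ and 0.709 to 14.8 CPM in GFP− libraries, with Ms4a1 at 0 counts. Dendritic cell genes, with Xcr1 and Cd209a at 0, summed to 5.52 to 8.54 CPM in GFP+ and 8.23 to 26.3 CPM in GFP− libraries. The highest of these sums, in 17C1, was mainly Batf3, a transcription factor, with 0 and 0 counts in GFP+ and 391 and 70 counts in GFP− libraries of 17C1 and 17C2. Mast cell genes summed to 0.762 to 2.34 CPM in GFP+ and 0 to 4.60 CPM in GFP− libraries. Red cell genes summed to 0.964 to 86.7 CPM in GFP+ libraries, with the highest value in 21A7, and to 0.553 to 9.74 CPM in GFP− libraries. Several of these sums exceeded those of the resident genes in the 17C mice, which were 0.653 and 2 CPM in GFP+ and 2.03 and 3.07 CPM in GFP− libraries, and their part in the results was not tested.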

How the data were processed

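Total RNA of sorted cells was amplified with SMARTer chemistry and made into Nextera XT libraries, which do not mark strand, per the labels' protocols. The authors deposited raw counts of reads, not normalized, as 1 table of all 10 libraries. Build GRCm39, featureCounts of Subread 2.0.1, STAR 2.7.9a and fastp 0.23.1 are named in the submitters' processing notes. Annotation, strand setting and multi-mapping rule are not given in the sources used, so counts of genes with near-identical copies (Ly6c2, Lyz2, Fcgr3, MHC class II genes) are uncertain. No molecular identifiers are named, so intervals cover counting error only.

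The paired test was the two-sided quasi-likelihood F-test of edgeR 4.0.16 (R 4.3.3; mouse as a block, filterByExpr, TMM, Benjamini-Hochberg over all 12115 genes tested, called at an adjusted p under 0.05). An SE is the size of the log2 fold change over √F, and log2 CPM uses a prior count of 2. Alternatives used DESeq2 1.42.0 and limma 3.58.1, other scalings and filters, and libraries left out. The fits were also run on simulated counts, with an equal spread for all genes and no difference between series. That run does not show how the fits behave on these data. Libraries are paired by the animal identifier in their titles. For each mouse, the deviations of both libraries from their group means were correlated across genes. The r was 0.0741 in 21A5, 0.161 in 21A4, 0.292 in 17C1, 0.397 in 17C2 and 0.637 in 21A7. These values cannot check the pairing, since the r between different mice was not taken and libraries of a series share its deviation. No 2 libraries were identical (0 pairs). Library totals were 12244373 to 38879965 counts, and low genes are the least precise. The genes described, the gene lists and the naming rule were chosen with earlier results of these data known. The rule gives values for the 2 most abundant genes of each role, all tested resident, recruited and phagocyte genes, and any gene called over 5 mice. Of each outside list it names the 2 genes with the smallest p, of which 1 gene is not reported here.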

Additional observations from a re-analysis of the deposited data

Results flagged for a closer look

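Of 64 gene and group combinations examined for a library far from the other 4, 2 stood out. That is no more than chance gives, at about 1 in 20. Spp1 in the GFP+ library of 21A7, at 66.7 CPM, and Gpnmb in the same library, at 59.0 CPM, were both far above the other GFP+ libraries. That library also had the highest mitochondrial share, 91.21%. The part of that share in both values was not tested.

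The GFP+ over GFP− change differed between the 21A and the 17C mice for 7 genes by the test of the interaction (21A minus 17C, log2). The values were −5.94 for Ptprc, −5.71 for Ccr2, −3.30 for Lyz2, −5.10 for Ccl2, −2.47 for Lgals3, −2.31 for Apoe and −3.96 for H2-Aa. Without 21A5 none of the 32 genes passed in edgeR, with 12 at an unadjusted p under 0.05. Without 17C1 none passed either, with 14 at an unadjusted p under 0.05, in a fit where the 1 remaining 17C pair is assumed to vary like the 21A mice.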

How the results depend on the processing

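The 32 tested genes had 2 calls among 104 over all genes with the mouse as replicate block. The counts of calls among the 32 and over all genes were 0 and 10 with no replicate block, and 12 and 895 with DESeq2. They were 21 and 1163 with limma voom, and 0 and 0 with scaling to cardiomyocyte genes. Other fits tested other numbers of genes. Without a filter, 18 of 36 genes described and 818 of all 26141 were called. In the 17C mice 4 of 22 and 1510 of 11107 were called, and in the 21A mice 21 of 34 and 889 of 13221. DESeq2's size factors, removal of mitochondrial genes and a filter of 5 CPM in 5 libraries left 1 call each, and library totals alone gave 3 (Siglec1, Cd163 and Fcer1g, without C1qc and Cybb) and 33 over all genes (5 higher and 28 lower, against 83 and 21). Leaving out 1 mouse gave 0 to 4 and 0 to 173. In the 17C mice, list medians relative to all genes were −0.74 (resident, 1 gene tested), 2.81 (recruited, 2 genes) and −0.34 (phagocyte, 5 genes). Over all mice they were −2.29 (4 genes), −0.72 (4 genes) and −1.73 (5 genes). The resident and recruited medians thus rest on unlike sets of genes and do not compare whole lists. For the alternatives within a series and of the interaction, calls over all genes were not counted. The counts below therefore cannot be read as particular to the genes described. In the 21A mice all 10 cardiomyocyte genes lay above 0, so scaling to them moves the changes of all genes down. The 21 calls in the 21A mice became 33 with cardiomyocyte scaling, 0 with no replicate block and 1 to 27 without a mouse. The 4 calls in the 17C mice became 2 with library totals or DESeq2 and 1 with no replicate block. The 7 interactions became 26 with cardiomyocyte scaling, 15 without a filter and 0 to 7 without a mouse.

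Among single genes and settings, 274 values kept their direction and side of the threshold, 59 became called, 18 lost the call and 13 changed sign. The sign changes were C1qa 0.81, Lyz2 1.04, Tyrobp 0.29, Trem2 0.92 and Cd74 0.20 in the 17C mice alone. Ccl2 was −0.84 in the 21A mice alone, −0.61 with library totals, −0.48 with limma voom, −0.41 with no replicate block and −0.15 to 1.36 without a mouse. Lgals3 was −0.0795 with library totals, and Ccr2 −1.34 to 0.40 without a mouse. The cause of these changes was not tested. The median log2 fold change of all genes was −1.15 with library totals, −0.24 with cardiomyocyte scaling and −0.23 without a filter, against −0.04. Settings other than the pairing, the tool and the series were added for the counts within series after the values were seen. With the 5 CPM filter no resident gene was left, and leaving out a mouse was not run within the 17C pairs.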
